A study of Mus musculus with 53 samples.

Results

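Macrophages take up iron as transferrin or as heme, store it in ferritin and return it to the blood, and 10 genes of this traffic were followed here through the response to the cytokine interleukin-4 (IL-4). They were the loci named Slc40a1, Hmox1, Tfrc, Fth1, Slc11a1, Slc11a2, Slc48a1, Cp, Blvrb and Ireb2, chosen by gene symbol, 10 of 23847 loci in the table. All 10 passed the filter of at least 1 FPKM in at least 1 sample, as did 11146 loci in all. FPKM is the number of sequenced fragments mapped to a gene, scaled for the gene's length and the size of the library.

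The samples were bone marrow-derived macrophages (BMDMs), grown from mouse bone marrow for 6 days with L929 cell supernatant per the study's methods and with MCSF per the labels. Donors were C57BL/6 mice of 8 to 12 weeks, either wild type (WT) or lacking STAT6 in the whole body (Stat6-/-, Stat6KO in the labels), so the mutant cells were without STAT6 also while they differentiated. Cells received 20 ng/ml IL-4 for 1, 3, 6 or 24 h, or none for the same time, and a control was taken at 0 h. WT groups held 4 samples, except that IL-4 at 24 h held 3 (replicate 1 was not analysed here), and each Stat6-/- group held 2, 53 samples in 18 groups. Poly-A RNA was sequenced in each.

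The iron of macrophages comes largely from red cells they engulf: heme leaves the phagolysosome, HMOX1 opens its ring, and the freed iron is stored in ferritin or exported. Iron-regulatory proteins bind a hairpin, the iron-responsive element, in some of the messenger RNAs involved; bound near the start of an mRNA they block its translation, and bound near its end they protect it from decay. IL-4 acts through the transcription factor STAT6 and drives alternative polarization.

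Stat6 itself read 58.7 to 90.6 FPKM in the 35 WT samples and 14.3 to 24.0 FPKM in the 18 Stat6-/- samples, without overlap. All 7 macrophage marker loci were present, from Mertk (4.60 to 28.4 FPKM) and Fcgr1 (15.99 to 553 FPKM) to Csf1r (610 to 1081 FPKM) and Cd68 (780 to 1678 FPKM), apart from values of 0 listed for Lyz2 in 7 samples. At 24 h in WT the 7 loci summed to 6644 to 8048 FPKM with IL-4 and 21760 to 27820 FPKM without, a sum made up largely of Lyz2. The study names Lyz2 among the genes repressed by IL-4, so this sum does not measure macrophage content apart from the treatment. The part of the difference in this sum in the 24 h results below was not tested. Of the erythroid markers, 11 of 12 loci stayed under 1 FPKM in every sample, the globins and Alas2 among them. Neutrophil markers were present, and their 7 loci summed to 227 to 1088 FPKM. The 2 Stat6-/- replicates stood far apart in several of the 10 genes, and their gap entered the standard errors below, since a single spread per locus was estimated over all 53 samples. Fits that left out a WT replicate kept both Stat6-/- replicates, and with them this gap. Each fold change below is therefore given with the IL-4 to control ratio within each replicate number where the call depends on it.

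In WT cells IL-4 lowered the iron exporter gene Slc40a1 from 3 h on, lowered the heme oxygenase gene Hmox1 at 3 h and raised the transferrin receptor gene Tfrc from 3 h on, while Cp was lower at 24 h. A locus was called where limma's Benjamini-Hochberg adjusted p was under 0.05 and the change of log2(FPKM + 1) was at least 1 in size. At 1 h 0 of the 10 genes were called (1.49% of all tested loci were). At 3 h 3 were, against 3.88% of loci, 2 of them lower (1.27% of loci) and 1 higher (2.61%). At 6 h 2 were, against 5.54%, with 1 lower (2.36%) and 1 higher (3.18%), and at 24 h 3 were, against 8.5%, with 2 lower (4.58%) and 1 higher (3.91%). Without a size limit, 1, 5, 4 and 5 of the genes passed at 1, 3, 6 and 24 h, beside 9.39%, 28.9%, 41.2% and 55.0% of all tested loci, so from 6 h on their share did not exceed the background. With the replicate number as a block 3, 7, 8 and 7 passed, beside 17.1%, 41.1%, 55.2% and 66.2% of loci, so that the share at 24 h was again near the background. To the calls the block added Hmox1 at 6 h. Called with it were 0, 3, 3 and 3 at 1, 3, 6 and 24 h, beside 1.54%, 3.99%, 5.73% and 8.87% of loci. The median log2 change of the 10 genes was -0.19, -0.34, -0.53 and -0.10 at these times, and that of all tested loci -0.02, 0.01, -0.0002 and -0.07.

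**Figure D1:**
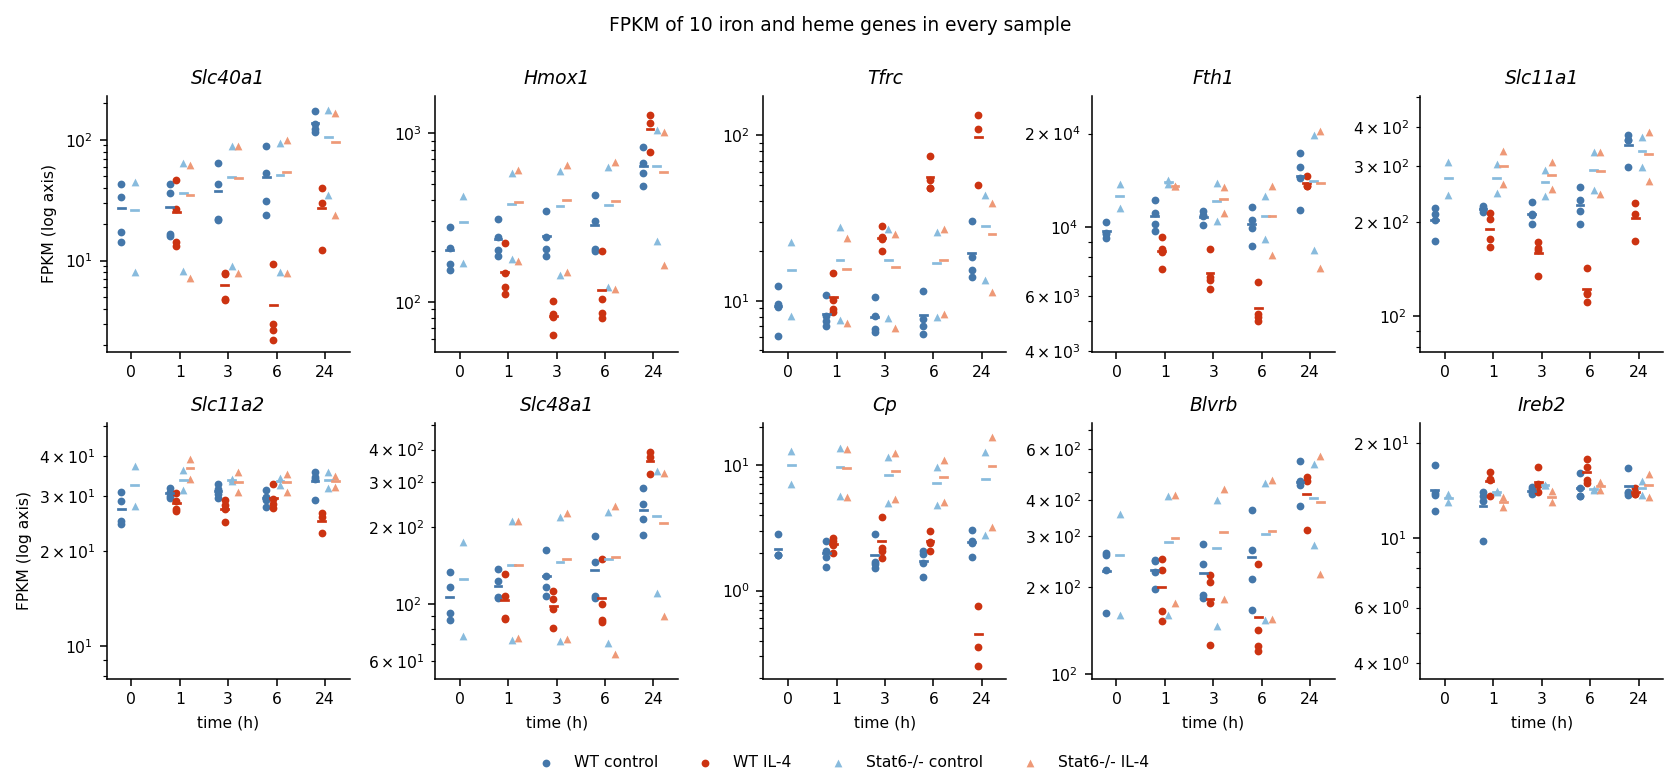
FPKM (log axis) of each of the 10 genes in every sample against time (h), with WT as circles, Stat6-/- as triangles, controls in blue, IL-4 in red, and a short bar at each group's mean. Slc40a1 fell to 2.21 to 9.33 FPKM in WT cells at 6 h of IL-4, while each pair of Stat6-/- triangles stayed apart and near its control.

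Slc40a1 encodes ferroportin, the only known cellular iron exporter (chromosome 1, 45908070 to 45925594, minus strand, mm10). In WT controls at 6 h it read 31.1, 24.0, 53.4 and 88.8 FPKM in replicates 1 to 4, and with IL-4 3.00, 2.21, 2.65 and 9.33 FPKM. The groups did not overlap, and replicate 4 was the highest of each. In such bulk samples fewer cells of a type and less RNA per cell cannot be told apart. On the log2(FPKM + 1) scale the change came to -3.25 ± 0.84 (SE, limma adjusted p = 0.00173). At 3 h the levels were 22.3, 21.5, 43.1 and 64.3 FPKM without IL-4 and 4.79, 4.75, 7.75 and 7.93 FPKM with it, again apart (-2.30 ± 0.84, limma adjusted p = 0.0349). At 24 h the controls had climbed to 117, 123, 134 and 175 FPKM, and the IL-4 samples (replicates 2 to 4) read 12.2, 29.98 and 39.8 FPKM (-2.42 ± 0.91, limma adjusted p = 0.0232). At 1 h, with 16.5, 16.01, 36.3 and 42.9 FPKM in controls against 13.1, 14.4, 26.6 and 46.7 FPKM with IL-4, the groups overlapped (-0.19 ± 0.84, limma adjusted p = 0.950). Within replicate numbers, IL-4 over control was 0.123 to 0.221 at 3 h, 0.0497 to 0.105 at 6 h and 0.0993 to 0.228 at 24 h. The calls at 3 and 24 h were lost without any single WT replicate (limma adjusted p = 0.111 to 0.163 and 0.0525 to 0.181), and that at 6 h was kept (0.0132 to 0.0354). Fitted on the WT samples alone, chosen after seeing the data, those at 3 and 24 h were kept (SE 0.47 and 0.50, limma adjusted p = 1.83e-04 and 1.37e-04).

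The Slc40a1 transcript carries 1 match to the iron-responsive element, shown here with those of Tfrc and Fth1 because it is the feature that the iron-regulatory proteins read in this gene group. The search took a bulged C, 5 paired upper stem bases (G to U pairs allowed) and a loop CAGTGN whose last base is not G, on the sense strand of the longest protein-coding transcript of each gene (GENCODE vM21, GRCm38). Matches were in 3 of the 10 genes and in 204 of 21877 protein-coding genes (0.932%). In the lines below, 5′ to 3′, capitals mark the 6-base loop.
Slc40a1, 5′ UTR, exon 1 of 8, chr1:45925466-45925492 (minus): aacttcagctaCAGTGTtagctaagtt
Fth1, 5′ UTR, exon 2 of 5, chr19:9982733-9982759 (plus): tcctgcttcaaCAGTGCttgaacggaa
Tfrc, 3′ UTR, exon 19 of 19, chr16:32631220-32631246 (plus): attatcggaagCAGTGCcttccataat
Tfrc, same exon, chr16:32631599-32631625: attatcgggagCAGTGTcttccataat
Tfrc, same exon, chr16:32631664-32631690: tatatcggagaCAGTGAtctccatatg
Tfrc, same exon, chr16:32631711-32631737: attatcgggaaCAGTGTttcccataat
The lower stem paired at 5 of 5 positions in Slc40a1 and in each of the 4 Tfrc matches and at 4 in Fth1. Tfrc was the single gene among the 21877 with 3 or more matches. That Hmox1, Slc11a1, Slc11a2, Slc48a1, Cp, Blvrb and Ireb2 had 0 says only that these letters are not in the transcripts searched.

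Tfrc encodes the transferrin receptor, which brings transferrin-bound iron into the cell (chromosome 16, 32608896 to 32632794, plus strand). Its course ran opposite to that of Slc40a1. At 3 h it read 6.46, 6.75, 8.10 and 10.5 FPKM in WT controls and 20.0, 23.5, 24.4 and 28.2 FPKM with IL-4. At 6 h the values were 7.04, 6.33, 7.78 and 11.4 FPKM against 53.8, 47.9, 47.7 and 75.1 FPKM. Every IL-4 sample exceeded every control at both times. The log2 changes were 1.49 ± 0.46 (limma adjusted p = 0.0106) and 2.65 ± 0.46 (limma adjusted p = 8.69e-06). At 24 h controls read 15.2, 13.9, 18.3 and 30.2 FPKM and the 3 IL-4 samples 49.8, 109 and 133 FPKM, still apart (2.22 ± 0.49, limma adjusted p = 2.52e-04). IL-4 over control was 2.69 to 3.48 at 3 h, 6.14 to 7.64 at 6 h and 3.58 to 5.94 at 24 h. The call at 3 h was lost without WT replicate 1, 2 or 3 (limma adjusted p = 0.063, 0.073 and 0.0793). Fitted on the WT samples alone, chosen after seeing the data, it was kept (SE 0.25, limma adjusted p = 1.42e-05). Tfrc is often high in dividing cells, and of 10 proliferation genes 9 were lower at 24 h of IL-4 (adjusted p under 0.05, median log2 change of the 10 -0.96), where 55.0% of all tested loci passed, and 0 passed at 1, 3 or 6 h. Their part in the 24 h value was not tested.

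Ireb2 encodes IRP2, an iron-regulatory protein (chromosome 9, 54863755 to 54912534), and its level hardly moved. It spanned 9.77 to 17.8 FPKM over all 53 samples. At 1 h WT controls read 13.1, 9.77, 13.6 and 14.0 FPKM and IL-4 samples 15.3, 16.2, 13.6 and 15.4 FPKM, with overlap. That was the one difference in Ireb2 past the adjusted p (0.25 ± 0.08, limma adjusted p = 0.0464). Without WT replicate 2, the low control, it was 0.12 (limma adjusted p = 0.607), and it also missed the test without replicate 1 or 4 (0.0976 and 0.0960). At 3, 6 and 24 h the changes were 0.08, 0.16 and -0.05.

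Fth1 encodes the ferritin heavy chain, which oxidizes iron for storage, and was the most abundant of the 10 per length (chromosome 19, 9980600 to 9985111). In WT controls at 6 h it read 8736, 9969, 10541 and 11614 FPKM, and with IL-4 5263, 5161, 4988 and 6677 FPKM. The groups were apart, and the log2 change of -0.89 ± 0.21 passed the test (limma adjusted p = 7.51e-04) short of the 2-fold limit. At 3 h, 10954, 11297, 10139 and 10893 FPKM stood against 8540, 6911, 6327 and 6779 FPKM (-0.61 ± 0.21, limma adjusted p = 0.0266), which missed the test without any single WT replicate (0.0631 to 0.151). Under quantile normalization the values at 3 and 6 h were -0.19 and -0.53, neither passing (limma adjusted p = 0.686 and 0.135), and without the filter on low values neither passed (0.581 and 0.266). At 24 h the groups overlapped, at 14384, 11361, 15584 and 17284 FPKM against 13543, 13595 and 14576 FPKM (-0.06 ± 0.23, limma adjusted p = 0.846). Of the 1445 distinct 50-base stretches of its longest transcript 4.01% also occur in the processed pseudogene Gm6977.

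Hmox1 encodes heme oxygenase 1, which breaks heme down to biliverdin, carbon monoxide and iron (chromosome 8, 75093618 to 75100593). It was lower early and higher late. At 3 h WT controls read 205, 186, 243 and 347 FPKM and IL-4 samples 80.8, 63.2, 84.1 and 101 FPKM, with no overlap (-1.54 ± 0.57, limma adjusted p = 0.0372), a call lost without any single WT replicate (0.121 to 0.166). At 6 h the values were 199, 207, 301 and 430 FPKM against 86.1, 79.8, 104 and 199 FPKM. Replicate 4 with IL-4 there reached the lowest control, and the change missed the test (-1.30 ± 0.57, limma adjusted p = 0.0654). Blocked on the replicate number it was called (-1.30 ± 0.13, limma adjusted p = 1.01e-10), and IL-4 over control was 0.345 to 0.464 in the 4 pairs. At 24 h the sign had turned, with 577, 488, 663 and 828 FPKM in controls and 774, 1144 and 1281 FPKM with IL-4. IL-4 was higher in 3 of 3 pairs, by 1.55 to 1.73 times, although the groups overlapped. Its log2 change was 0.73 ± 0.62 (limma adjusted p = 0.320), and 0.66 ± 0.14 (limma adjusted p = 1.17e-04) with the block. At 1 h the ratio was 0.589 to 0.719 in 4 pairs, past the test with the block (-0.67 ± 0.13, limma adjusted p = 1.39e-04) and not without it (limma adjusted p = 0.586) or with the block as a random effect (0.0650). On the WT samples alone, without a block and chosen after seeing the data, Hmox1 was called at 3 and 6 h (limma adjusted p = 3.99e-05 and 2.56e-04). In that fit the change at 24 h passed short of 2-fold (0.0358), and that at 1 h missed the test (0.121).

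**Figure D2:**
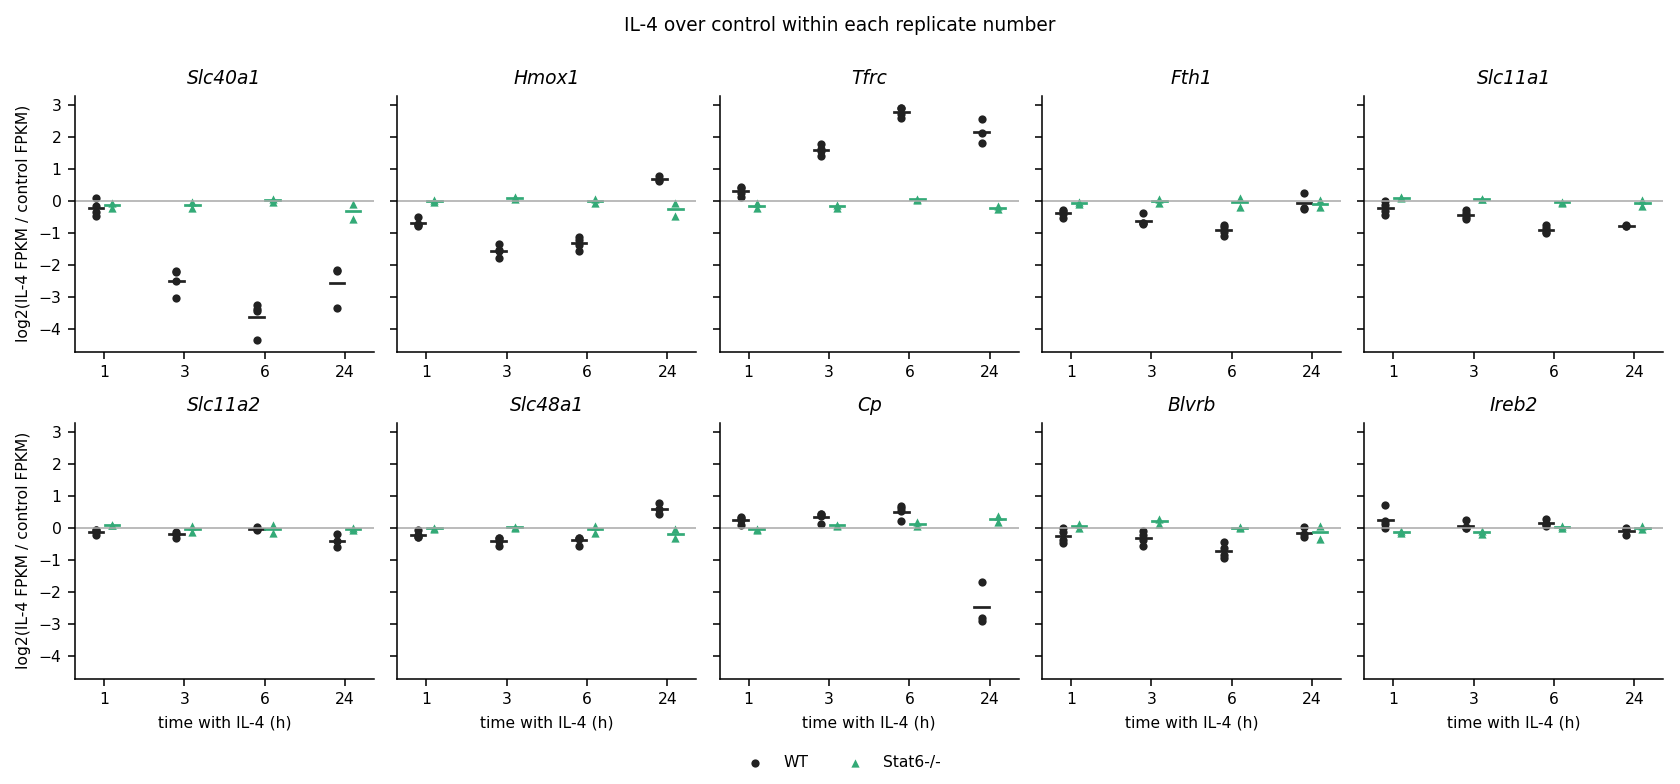
log2 of IL-4 FPKM over control FPKM for samples with the same replicate number, against time with IL-4 (h), WT as black circles and Stat6-/- as green triangles, with a bar at each mean. In WT, Hmox1 and Slc48a1 lay below 0 at 3 and 6 h and above 0 at 24 h, and Tfrc lay above 0 at every time; the Stat6-/- points stayed between 0.687 and 1.302 times control.

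Slc48a1 encodes HRG1, which carries heme out of the phagolysosome (chromosome 15, 97784365 to 97792692). At 24 h it read 215, 186, 246 and 283 FPKM in WT controls and 320, 374 and 390 FPKM with IL-4, with no overlap. The change of 0.65 ± 0.46 missed the test (limma adjusted p = 0.238) and passed it with the block, still under 2-fold (0.59 ± 0.09, limma adjusted p = 5.00e-07). On the WT samples alone, without a block and chosen after seeing the data, it also passed (SE 0.20, limma adjusted p = 0.00655). At 3 h its ratio was 0.691 to 0.821 and at 6 h 0.685 to 0.819, lower in 4 of 4 pairs at each time. These passed with the fixed block (limma adjusted p = 2.24e-04 and 2.65e-04), and missed the test without it (0.593 and 0.531) and with the block as a random effect (0.106 and 0.0959). They missed it on the WT samples alone as well (limma adjusted p = 0.120 and 0.108).

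Blvrb encodes biliverdin reductase B (chromosome 7, 27447978 to 27465981). At 6 h it read 167, 213, 268 and 371 FPKM in WT controls and 125, 120, 142 and 241 FPKM with IL-4. The groups overlapped, while each pair was lower, by a ratio of 0.529 to 0.749. The change of -0.69 missed the test (SE 0.39, limma adjusted p = 0.153) and passed it with the block (SE 0.13, limma adjusted p = 1.67e-05). On the WT samples alone, without a block and chosen after seeing the data, it also passed (SE 0.23, limma adjusted p = 0.0140). At 24 h its ratios ran from 0.825 to 1.03.

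Slc11a1 and Slc11a2 encode NRAMP1, which moves metal ions out of the phagosome, and DMT1, which moves iron out of endosomes. Slc11a1 (chromosome 1, 74375203 to 74386051) at 6 h read 197, 216, 234 and 257 FPKM in WT controls and 118, 111, 118 and 143 FPKM with IL-4. At 24 h the values were 363, 298, 364 and 378 FPKM against 173, 212 and 229 FPKM. The groups did not overlap at either time, nor at 1 or 3 h. At 1 h, though, the highest IL-4 sample (213.8 FPKM) all but met the lowest control (214.0 FPKM). The change there missed the test (-0.21 ± 0.13, limma adjusted p = 0.384, and 0.0128 with the fixed block). The log2 changes were -0.42, -0.88 and -0.78 at 3, 6 and 24 h (SE 0.13, 0.13 and 0.14; limma adjusted p = 0.0108, 5.20e-07 and 1.28e-05). That at 3 h missed the test without replicate 2, 3 or 4 (0.0542, 0.0671 and 0.0597). Neutrophils also express Slc11a1, and at 24 h the 7 neutrophil marker loci summed to 227 to 328 FPKM with IL-4 and 454 to 631 FPKM without. Their part in the result was not tested. Slc11a2 (chromosome 15, 100387900 to 100423055) read 35.8, 29.0, 34.0 and 34.4 FPKM at 24 h in controls and 25.7, 22.9 and 26.4 FPKM with IL-4, also apart (-0.40 ± 0.09, limma adjusted p = 1.99e-04). At 6 h it did not differ beyond its error (-0.01 ± 0.08). An antisense gene, Gm5475, shares 402 exon bases with Slc11a2, and the library kit did not mark strand. Antisense genes also share 108 exon bases with Cp (Hps3) and 29 with Slc48a1 (Hdac7).

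Cp encodes ceruloplasmin, a ferroxidase that assists iron export, and was the least abundant of the 10 (chromosome 3, 19957054 to 20009750). In WT it lay at 1.28 to 3.86 FPKM up to 6 h in either treatment. At 24 h controls read 3.04, 1.86, 2.47 and 2.40 FPKM and IL-4 samples 0.249, 0.352 and 0.750 FPKM, with no overlap. The log2 change of FPKM + 1 was -1.25 ± 0.37 (limma adjusted p = 0.00457), which understates the change of so low a gene, since IL-4 over control was 0.134 to 0.312. Without WT replicate 3 the adjusted p by limma was 0.0563. At 6 h Cp was higher in 4 of 4 pairs, by 1.18 to 1.62 times (0.35 ± 0.34, limma adjusted p = 0.442, 0.0269 with the fixed block and 0.0989 with a random one).

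Without STAT6 none of these changes was called. In Stat6-/- cells 0 of the 10 genes and 0.0% of loci were called by limma at 1, 3, 6 or 24 h. Of 11146 loci 51, 131, 88 and 37 had an unadjusted p under 0.05 there, fewer than chance alone would give. The gap between the replicates entered the SE, so 0 calls in this fit do not by themselves show a lack of response. With the block 0 of the 10 genes were called, beside 0.00897%, 0.00897%, 0.00897% and 0.0% of loci, so 0 did not set the genes apart. By the analysis of variance with Tukey's adjustment 0 were called too, and the share of loci is not given here. The 80 ratios of IL-4 to control within a replicate number, 10 genes at 4 times in 2 replicates, lay between 0.687 and 1.302. At 6 h Slc40a1 read 95.0 and 8.03 FPKM without and 100 and 7.97 FPKM with IL-4 in replicates 1 and 2. Tfrc there read 25.9 and 7.98 FPKM without and 27.02 and 8.31 FPKM with IL-4. At 3 h Hmox1 read 593 and 144 FPKM without and 650 and 151 FPKM with IL-4. The gap between the replicates was thus far larger than that between treatments.

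The difference between the genotypes' responses was tested as an interaction. Of the 10 genes 0, 0, 1 and 1 were called at 1, 3, 6 and 24 h, beside 1.25%, 3.48%, 4.41% and 6.85% of loci. The 1 gene was Tfrc, whose log2 response was larger in WT by 2.59 ± 0.79 at 6 h (limma adjusted p = 0.0181) and by 2.40 ± 0.81 at 24 h (limma adjusted p = 0.0247). Slc11a1 passed short of 2-fold at 6 h (-0.86 ± 0.22, limma adjusted p = 0.00508) and 24 h (-0.73 ± 0.23, limma adjusted p = 0.0154), and Slc11a2 at 24 h (-0.38 ± 0.14, limma adjusted p = 0.0424). For Slc40a1 at 6 h the difference was -3.28 with an SE of 1.45 (limma adjusted p = 0.128). With the replicate block that SE was 0.34 (limma adjusted p = 1.27e-09). The block raised the calls to 3 at each of 3, 6 and 24 h, beside 4.07%, 5.44% and 8.76% of loci called with it: Slc40a1, Hmox1 and Tfrc at 3 and 6 h and Slc40a1, Tfrc and Cp at 24 h. Leaving out either Stat6-/- replicate gave 2 calls at 6 h and 2 at 24 h, but each Stat6-/- group then held 1 sample, so the spread came from the WT groups alone and the gap between the Stat6-/- replicates was removed by construction. Tfrc lost its call without WT replicate 1, 2 or 3 at 6 h (limma adjusted p = 0.0651, 0.0596 and 0.0710) and without 1, 3 or 4 at 24 h (0.0672, 0.118 and 0.0662). Slc11a1 at 24 h missed the test without WT replicate 3 (0.0630), and Slc11a2 without WT replicate 1, 3 or 4 or either Stat6-/- replicate (0.0541 to 0.204).

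The 2 Stat6-/- replicates differed more in these genes than in most. Over the 5 controls the mean log2 gap of replicate 1 over replicate 2 was 2.82 for Slc40a1, 1.92 for Hmox1, 1.60 for Tfrc, 1.52 for Slc48a1, 1.29 for Blvrb and -1.15 for Cp. These 6 of 10 genes were past 2-fold, as were 435 of the 11146 tested loci (3.90%). Slc40a1 had the 4th highest gap of all tested loci. Fth1, Slc11a1, Slc11a2 and Ireb2 differed by 0.38, 0.33, 0.08 and -0.05. The Fth1 gap changed with time, from 11500 and 13734 FPKM in replicates 1 and 2 at 0 h to 19800 and 8426 FPKM in the 24 h controls. Across all 9 combinations of time and treatment, replicate 1 held 5.07 to 12.6 times the Slc40a1 of replicate 2, 2.50 to 6.12 times the Hmox1 and 2.79 to 3.69 times the Tfrc, and 0.192 to 0.539 times the Cp. The WT replicates varied to a lesser degree. Replicate 4 had the highest Slc40a1, Hmox1, Tfrc and Slc48a1 in 9 of 9 groups. WT replicates 3 and 4 exceeded 1 and 2 by a mean log2 of 1.07 for Slc40a1, 0.59 for Hmox1, 0.45 for Tfrc, 0.43 for Slc48a1, 0.39 for Blvrb and 0.10 for Cp. The median absolute gap over all tested loci was 0.07. No label sets replicates 3 and 4 apart from 1 and 2, so this split only describes the values. Erythroid marker loci summed to 0.676 to 1.79 FPKM in Stat6-/- replicate 1 and 0.488 to 1.03 FPKM in replicate 2. Neutrophil loci summed to 646 to 1088 FPKM and 597 to 790 FPKM. Whether either moved these genes was not tested.

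**Figure D3:**
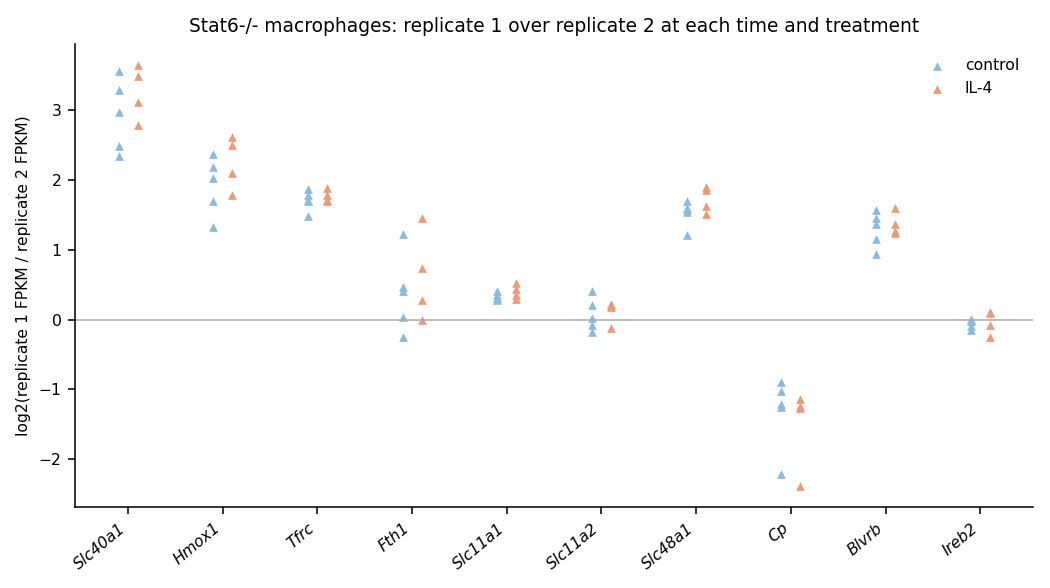
log2 of Stat6-/- replicate 1 FPKM over replicate 2 FPKM for each gene, 5 controls in blue and 4 IL-4 samples in orange. All 9 points lay above 0 for Slc40a1, Hmox1, Tfrc, Slc48a1, Blvrb and Slc11a1, and all 9 below 0 for Cp.

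Between controls of the genotypes, Cp stood out. It read 1.93, 1.93, 1.92 and 2.80 FPKM in WT at 0 h and 7.04 and 13.1 FPKM in Stat6-/- cells, without overlap. At 24 h the Stat6-/- controls read 2.75 and 12.8 FPKM, and the lower of them fell within the WT range of 1.86 to 3.04 FPKM. Cp was called at 0 h (1.77 ± 0.42, limma adjusted p = 0.0189) and 1 h (1.74 ± 0.42, limma adjusted p = 0.0239). At 3, 6 and 24 h it was not (1.61, 1.53 and 1.07, limma adjusted p = 0.0567, 0.101 and 0.616). So 1, 1, 0, 0 and 0 of the genes were called at 0, 1, 3, 6 and 24 h, beside 0.35%, 0.26%, 0.126%, 0.0449% and 0.0269% of loci. Without WT replicate 1, 2 or 3 Cp lost its call at 0 h, and without any single one of the 4 at 1 h.

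Several of the genes stood higher in the 24 h controls than in the 0 h controls. From 0 to 24 h in WT controls 2 of 10 were called, both higher, beside 1.13% of loci called and 0.377% called higher. Slc40a1 went from 14.2, 17.3, 33.7 and 43.1 FPKM to 117, 123, 134 and 175 FPKM, without overlap (2.41 ± 0.84, limma adjusted p = 0.0420). Hmox1 went from 166, 155, 210 and 279 FPKM to 577, 488, 663 and 828 FPKM, also without overlap (1.67 ± 0.57, limma adjusted p = 0.0392). Both calls were lost without any single WT replicate (0.119 to 0.231 and 0.132 to 0.204), and 4 of 4 replicates rose in each gene. Fitted on the WT samples alone, chosen after seeing the data, both were kept (limma adjusted p = 2.30e-04 and 3.83e-05). Slc11a1 (0.79) and Slc11a2 (0.28) passed short of 2-fold, so that 4 of 10 passed beside 17.2% of loci. The block raised the calls to 4, beside 1.93% of loci called with it, by adding Slc48a1 (1.12 ± 0.08) and Blvrb (1.03 ± 0.13; limma adjusted p = 6.22e-13 and 5.55e-08). In Stat6-/- controls 0 were called beside 0.161% of loci, and with the block Slc40a1 was (1.98 ± 0.28, limma adjusted p = 3.66e-06), beside 1.26% of loci. The 24 h IL-4 responses were thus measured against controls that had themselves moved, and in WT with IL-4 Slc40a1 at 24 h (12.2 to 39.8 FPKM) spanned much of its 0 h range.

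Most other genes of the pathway that moved did so by less than 2-fold. Of 63 further iron and heme genes 49 were tested. Of these 3 passed at 1 h (2 higher, 1 lower), 14 at 3 h (5 and 9), 23 at 6 h (10 and 13) and 28 at 24 h (12 and 16), beside 9.39%, 28.9%, 41.2% and 55.0% of all tested loci, so that from 3 h on their share was near the background. Called were 1, 1, 3 and 6 (1.49%, 3.88%, 5.54% and 8.5% of all loci were), and the median log2 change was -0.10, -0.05, -0.14 and -0.09. In Stat6-/- cells 0 passed at any time. Among regulators of heme genes, 3 were tested and 2 passed at 24 h. Bach1, a heme-sensing repressor of Hmox1, rose at 1 h from 24.8 to 28.2 FPKM in controls to 60.3 to 67.8 FPKM with IL-4 (1.25 ± 0.07, limma adjusted p = 2.18e-17). Its response differed between the genotypes (1.17 ± 0.12, limma adjusted p = 3.60e-09). By 24 h it lay below control (-0.59 ± 0.08, limma adjusted p = 2.36e-08). Nfe2l2, which encodes NRF2, an activator of Hmox1, fell at 3 h from 124 to 139 FPKM to 58.3 to 68.5 FPKM (-1.04 ± 0.10, limma adjusted p = 1.61e-10). Spic, a transcription factor of iron-recycling macrophages, fell at 24 h from 8.24 to 14.6 FPKM to 0.827 to 2.47 FPKM (-2.21 ± 0.45, limma adjusted p = 7.10e-05).

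In heme synthesis, 6 of 13 genes passed at 24 h, 4 higher and 2 lower, a share below the 55.0% of all tested loci. Alas1, the rate-limiting enzyme of the pathway outside the erythroid line, rose from 38.1 to 73.9 FPKM to 212 to 267 FPKM (2.18 ± 0.34, limma adjusted p = 1.28e-06), and Ppox had the lowest change (-0.41). Of the genes of heme uptake, breakdown and export 6 of 7 passed at 24 h, 5 of them lower, beside the same 55.0%. Hp, haptoglobin, fell from 4.10 to 9.29 FPKM to 0.842 to 1.60 FPKM (-1.68 ± 0.39, limma adjusted p = 4.40e-04), and Blvra was highest (0.36). Lrp1, a receptor for heme bound to hemopexin, fell at 6 h (-1.27 ± 0.09, limma adjusted p = 2.32e-14). Among uptake and transport genes Hfe, a partner of the transferrin receptor, rose at 6 h (1.07 ± 0.18, limma adjusted p = 5.32e-06). Lcn2, which binds iron-loaded siderophores, also abundant in neutrophils as Hp is, was lowest at 24 h (-1.12 ± 0.20, limma adjusted p = 1.28e-05), and Steap3, an endosomal iron reductase, was highest (0.78 ± 0.12, limma adjusted p = 5.75e-07). Of the sensing genes Aco1, which encodes IRP1, rose at 24 h (0.69 ± 0.10, limma adjusted p = 4.48e-07), and Fbxl5, which marks IRP2 for decay, fell (-0.40 ± 0.07, limma adjusted p = 1.07e-05). In mitochondria, the iron importer Slc25a37 fell at 6 and 24 h (-1.06 and -1.14; limma adjusted p = 9.41e-15 and 1.50e-14). Hscb, an iron-sulfur cluster chaperone, fell at 24 h (-1.34 ± 0.09, limma adjusted p = 1.19e-15), and Glrx5 was highest (0.75). In storage Ncoa4, the receptor for ferritin breakdown, was lowest without passing (-0.54, limma adjusted p = 0.213), and Pcbp1, an iron chaperone, was highest (0.23, limma adjusted p = 8.73e-04). Hamp, Heph, Cd163 and Hpx were among the 14 genes below 1 FPKM in every sample.

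**Figure D4:**
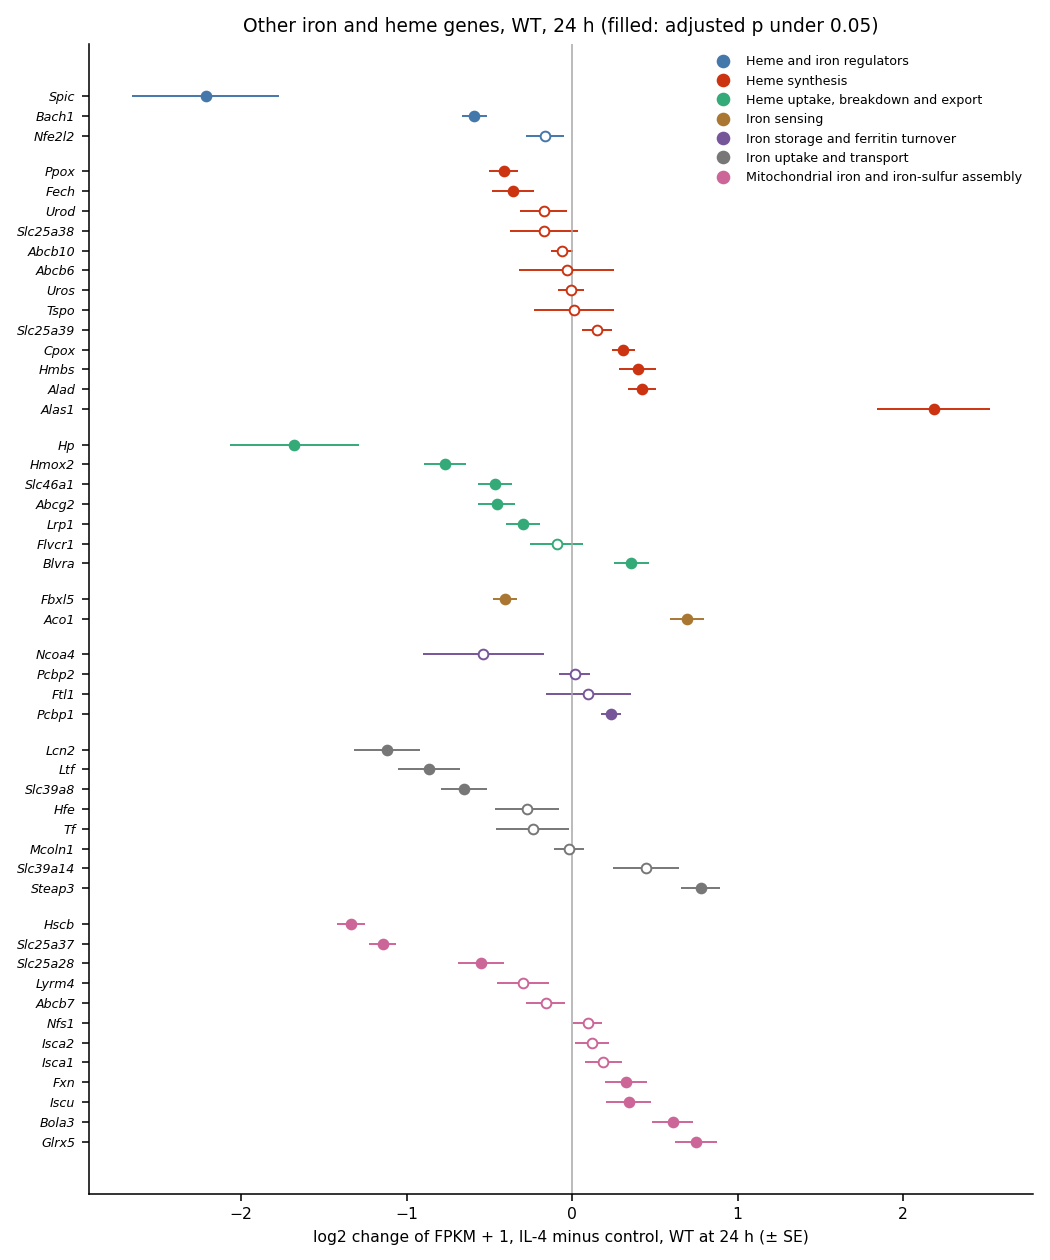
log2 change of FPKM + 1 between IL-4 and control in WT at 24 h (± SE) for the 49 other iron and heme genes tested, grouped by role, filled where the adjusted p was under 0.05. Alas1 lay farthest to the right (2.18) and Spic farthest to the left (-2.21).

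For the 4 genes called in WT, the loci with the nearest response were sought over the 8 log2 changes (4 times in each genotype), by root mean square difference. Tfrc lay nearest to Hebp2 (0.135), a heme-binding protein, then Cldn11 (0.141) and Itgb3 (0.179). Hmox1 lay near Pik3cb (0.186) and C77080 (0.187). Pik3cb shared the turn of sign, at -1.47, -1.20 and 0.61 at 3, 6 and 24 h in WT. Slc40a1 had no such close match, with S1pr1 at 0.358, Tlr2 at 0.460 and Klhl6 at 0.519. Cp lay nearest to P2ry12 (0.101), Ctsc (0.108) and Fas (0.112). These distances were taken on log2(FPKM + 1), which understates the 24 h change of Cp (-1.25, against a mean log2 FPKM ratio of -2.47 within pairs). Matching on another scale was not tested.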

How the data were processed

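Poly-A RNA-seq of 53 mouse BMDM samples was read from the deposited FPKM tables, 1 per sample. Per the labels' processing notes the authors used TopHat2 2.0.7, Cufflinks 2.0.2 and the mm10 build. Samples were grouped by genotype, treatment and time as labelled. FPKM keeps no absolute depth; whole-read steps gave a relative depth of 0.707 to 1.55 times the median sample in both genotypes together (WT median 1, Stat6-/- median 1.01). No 2 samples were identical. The 4316 values below 1e-06 FPKM were set to 0. An FPKM of 0 can be a failed estimate: Lyz2 was listed at 0 in 7 samples, and no value of the 10 genes was 0. The members and the gene lists were chosen with earlier results of these data known.

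log2(FPKM + 1) of loci that reached 1 FPKM in any sample was fitted with limma 3.58.1 (R 4.3.3), a mean per group over all samples and eBayes with trend (35 residual degrees of freedom). p-values are two-sided and Benjamini-Hochberg adjusted over 11146 loci within each comparison. The steps were tested on simulated data. The study used analysis of variance with Tukey's test, here an alternative, beside other pseudocounts, filters, scalings, spreads, sample sets and each replicate left out. All 10 genes were named; of the other iron and heme genes, those called in WT or at either end of their role at 24 h; and the 3 loci nearest in response, of which 1 is not reported here.

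The study gives 4 individual animals for WT, but no label states that a replicate number marks an animal. The numbers were taken to pair samples: deviations of same-numbered control and IL-4 samples from their group means correlated above 0.1 in 13 of 15 WT pairs (r 0.0265 to 0.561, median 0.235) and 8 of 8 Stat6-/- pairs (0.791 to 0.900; with 2 replicates, deviations mirror each other). The replicate block is a fixed effect within genotype. If replicates are not separate animals or cultures, p-values measure technical spread.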

Additional observations from a re-analysis of the deposited data

Results flagged for a closer look

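Of 80 sets of 4 WT samples (10 genes in 8 groups), 5 held a sample far from the other 3, where chance gives about 1 in 20. Slc40a1 read 9.33 FPKM and Fth1 6677 FPKM in replicate 4 at 6 h of IL-4, against 2.21 to 3.00 FPKM and 4988 to 5263 FPKM. Cp read 2.80 FPKM in replicate 4 of both the 0 h and the 3 h controls, against 1.92 to 1.93 FPKM and 1.51 to 1.69 FPKM. Ireb2 read 16.6 FPKM in replicate 2 of the 24 h controls, against 13.7 to 14.0 FPKM. Replicate 4 made up 4 of the 5.

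By the interaction term (limma adjusted p under 0.05) the genotypes responded to IL-4 unequally in 5 cases. WT minus Stat6-/- was 2.59 for Tfrc at 6 h and 2.40 at 24 h, -0.86 and -0.73 for Slc11a1 at the same times, and -0.38 for Slc11a2 at 24 h. Each of the 3 or 4 WT pairs moved in the direction given.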

How the results depend on the processing

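Of 3080 single-gene values under the alternatives, 2884 kept their side of adjusted p 0.05, 108 came to pass it, 87 lost it and 1 reversed: Fth1 in WT at 24 h became 0.77 (SE 0.30, limma adjusted p = 0.0331) under quantile normalization, which gives every sample the same set of values. Fth1 at 3 and 6 h also failed the test under it (-0.19 and -0.53). Of those that kept their side, 85 changed sign with neither value passing.

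With the replicate block the calls became 3 for the interaction at each of 3, 6 and 24 h, 4 for 24 h against 0 h in WT and 1 in Stat6-/- cells, beside 4.07%, 5.44%, 8.76%, 1.93% and 1.26% of all loci. As a random effect (consensus correlation 0.366) it gave the same numbers and 1 for Stat6-/- against WT controls at 3 and at 6 h; it changed no other count by over 1.5 times. Fitted on the WT samples alone (chosen after seeing the data), 24 h against 0 h gave 4. On the groups compared alone it gave 4 too, with 0 for the interaction at 24 h and 0 for the genotypes at 0 and 1 h. A pseudocount of 0.1 gave 2 for the interaction at 24 h and 1 for the genotypes at 3 h, 0.01 gave 2 for the former and quantile normalization 1 for the latter. No filter on low values gave 1 for IL-4 in WT at 3 h and 0 for 24 h against 0 h in WT. Tukey's test gave 0, 1 and 1 for IL-4 in WT at 3, 6 and 24 h and 0 for 24 h against 0 h in WT. The causes were not tested. Shares of all loci are given here for the fixed block alone. The other counts therefore do not set the genes against the background. Tukey's test was not run for the interaction, and a fixed block could not be fitted between genotypes, whose replicates are different animals or cultures.

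Leaving out each replicate in turn gave 0 to 1 calls for IL-4 in WT at 3 h (without replicate 4 it was 1, otherwise 0), 1 to 2 at 24 h, 0 to 2 for the interaction at 6 and at 24 h, 0 to 1 for the genotypes at 0 h, 0 to 2 at 1, 3 and 6 h and 0 to 3 at 24 h, 0 to 0 for 24 h against 0 h in WT and 0 to 1 in Stat6-/- cells. Shares of all loci called in these fits are not given here, so whether other loci lost calls alike is not shown. Precision is limited, since gaps between the 2 Stat6-/- replicates and among WT replicates both entered the standard errors. For Slc40a1 in WT at 3 h the SE was 0.84 over all samples, 0.47 on the WT samples alone and 0.20 with the block.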

Other observations

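Among the 49 other iron and heme genes tested, 3 were over 2-fold higher in Stat6-/- replicate 1 than in replicate 2 over the 5 controls: Ncoa4 (log2 1.27), Spic (1.22) and Alas1 (1.06). None was over 2-fold lower (Hp was lowest, -0.70). That is 6.12% of the list, against 3.90% of all tested loci and 6 of the 10 genes above. Abcb6 (0.98) and Ftl1 (0.81) came next. In WT, Spic was also higher in replicates 3 and 4 than in 1 and 2 (0.74), with the 26th highest gap of the tested loci, and Slc40a1 had the 7th.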
